A study of Mus musculus with 7 samples.

Results

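Genes used as markers of reserve, revival and fetal-like stem cell states of the intestinal epithelium were followed in sorted colon adenoma cells of Mex3a KO and WT mice. The 9 genes listed were Hopx, Bmi1, Clu, Ly6a, Il33, Il1rn, Msln, Tnfrsf12a and Spp1, and every probe set was taken whose platform annotation named exactly 1 gene, equal to one of them. That gave 14 of 45037 non-control probe sets, for 7 of the 9 genes; Ly6a and Spp1 had none under this rule and were not analysed here. The 3 KO arrays came from Mex3a tom/flox mice and the 4 WT arrays from Tom/+ mice, and both groups also carried Villin CreERT2, a tamoxifen-inducible Cre active in gut epithelium, and APC fl/+, with 1 floxed allele of the tumour suppressor. All animals had 4 doses of tamoxifen and 5 days of 2% dextran sulfate sodium (DSS), a polymer that injures the colon, and adenomas were taken about 2 months later (the labels differ on whether this runs from induction or from the end of DSS). The Tomato allele reports activity of the Mex3a promoter, and Epcam-positive, Tomato-positive cells were sorted. The labels do not say whether that allele still makes MEX3A protein, how old the animals were or whether adenomas were pooled. They also do not tie the arrays to separate mice, so the spread behind each p-value may be partly technical.

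Crypts of the gut renew from fast-cycling Lgr5-positive stem cells, and when these are lost other cells can restore them. Hopx, a small homeodomain protein that does not bind DNA itself, and Bmi1, a subunit of Polycomb repressive complex 1, were used to mark slow-cycling reserve cells near the crypt base. Clu encodes clusterin, a secreted chaperone that marks the rare revival stem cells seen after injury. Ly6a, Il33, Il1rn, Msln, Tnfrsf12a and Spp1 belong to the genes that injured or cultured adult epithelium shares with fetal gut. MEX3A is an RNA-binding protein of intestinal stem and progenitor cells, so the comparison bears on whether these alternative stem cell states differ when it is lost.

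The promoters of the 4 genes whose probe sets had the smallest p-values are shown, since 3 sequence motifs tied to injury signalling can be looked for in them. Each line gives the 250 bases before the gene's start in RefSeq GRCm38.p6, on the gene's own strand, 5′ to 3′. Capitals mark a match on either strand to GGAATG, the motif of the TEAD partners of YAP, to TGANTCA, the AP-1 motif, or to an NF-kB motif, GGGNN followed directly by TTTCC.
Bmi1, chr2:18676768-18677017, + strand: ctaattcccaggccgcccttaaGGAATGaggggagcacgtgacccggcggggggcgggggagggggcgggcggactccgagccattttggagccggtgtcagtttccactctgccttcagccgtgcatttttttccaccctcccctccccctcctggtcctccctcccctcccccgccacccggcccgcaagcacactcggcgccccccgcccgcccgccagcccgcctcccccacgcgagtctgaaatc
Hopx, chr5:77115124-77115373, - strand: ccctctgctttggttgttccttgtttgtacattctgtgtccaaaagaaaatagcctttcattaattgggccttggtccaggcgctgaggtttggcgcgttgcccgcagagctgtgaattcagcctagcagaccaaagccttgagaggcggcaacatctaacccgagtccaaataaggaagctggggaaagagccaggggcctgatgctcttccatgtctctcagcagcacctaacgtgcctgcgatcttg
Il1rn, chr2:24336610-24336859, + strand: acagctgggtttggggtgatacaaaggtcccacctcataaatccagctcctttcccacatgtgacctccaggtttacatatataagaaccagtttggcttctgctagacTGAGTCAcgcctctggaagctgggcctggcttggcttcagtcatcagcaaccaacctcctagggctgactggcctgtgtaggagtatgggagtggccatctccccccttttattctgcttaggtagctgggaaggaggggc
Tnfrsf12a, chr17:23677450-23677699, - strand: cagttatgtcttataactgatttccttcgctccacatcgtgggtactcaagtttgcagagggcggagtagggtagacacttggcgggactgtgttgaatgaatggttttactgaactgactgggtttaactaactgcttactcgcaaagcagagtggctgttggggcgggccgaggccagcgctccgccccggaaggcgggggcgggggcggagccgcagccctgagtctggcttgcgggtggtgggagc
Bmi1 held 1 TEAD motif, 228 to 223 bases before its start, and Il1rn 1 AP-1 motif, 141 to 135 bases before its start. Hopx and Tnfrsf12a held none of the 3 in this window. Over 32851 RefSeq windows of the same length, 12.6% held the TEAD motif, 6.75% the AP-1 motif and 1.41% the NF-kB motif, so these matches are descriptions only. Promoter sequence was at hand for 6 of the 9 genes, and Il33, whose window at the gene start also held 1 TEAD motif, is not printed. Windows before other starts of some genes are not printed either. Of these, 1 of Il1rn held 1 TEAD and 1 NF-kB motif, and 1 of Il33 held 1 TEAD motif.

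Levels are on the log2 scale, summarised for each probe set by RMA before deposit, and the median of an array lay between 5.96 and 6.00. Probe sets differ in brightness for reasons other than RNA amount, so levels are compared between arrays and not between genes. Mex3a, the targeted gene, read 6.18, 6.29 and 6.07 in the KO arrays, against 7.41, 7.38, 7.50 and 7.01 in the WT arrays on 1455529_PM_at. The groups did not overlap, and the difference was -1.13 (SE 0.13) with a limma adjusted p of 0.334. On 1436018_PM_at it read 5.95, 5.79 and 6.16 in KO, against 7.04, 6.59, 6.46 and 6.34 in WT, again without overlap, a smaller difference of -0.60 (SE 0.15; limma adjusted p = 0.483), so even the targeted gene did not pass over the whole table. The labels do not say where its probes lie relative to the floxed part. Epcam, the surface protein used in the sort, averaged 11.94 ± 0.06 in the 3 KO arrays and 11.94 ± 0.05 in the 4 WT arrays (SD), and the mean over 9 epithelial markers was 10.02 to 10.39 in KO and 10.06 to 10.19 in WT. The mean over 16 leukocyte markers was 6.15 to 6.33 in KO and 6.16 to 6.27 in WT, and 9 of the 16 read above the median level. Lyz2 was the brightest of them, averaging 12.45 in KO and 12.03 in WT, against 7.26 and 7.32 for Cd68 and 6.84 and 6.93 for Csf1r. The pan-leukocyte gene Ptprc was the lowest, at 4.07 to 4.25 in KO and 4.02 to 4.11 in WT. Fibroblast genes were uneven, with a mean over 10 markers of 6.19 in KO replicate 2 and 6.16 in WT replicate 3, against 5.64 and 5.72 in the other KO arrays and 5.56 to 5.72 in the other WT arrays. Of 16 leukocyte markers 1 stood without overlap, and of 8 endothelial markers 1, beside 4.96% of the table. These were the lysozyme gene Lyz2, higher in KO (0.39, SE 0.15), and the endothelial cadherin Cdh5, lower (-0.41, SE 0.10). Leukocyte markers gave 7 positive and 9 negative differences, and endothelial markers 3 and 5. The part of Lyz2 and Cdh5 in the results was not tested. Arrays were scanned in 2 batches, batch 1 with 1 KO and 2 WT arrays and batch 2 with 2 of each. In such bulk samples fewer cells of a type and less RNA per cell cannot be told apart.

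None of the reserve, revival or fetal-like markers passed the test between KO and WT. Of the 14 probe sets 9 had a higher estimate in KO and 5 a lower one, and the median log2 difference was 0.11, against -0.018 over all 45037 probe sets, of which 41.9% were positive. The test was limma with scan batch as a covariate and Benjamini-Hochberg adjustment over all probe sets, and at its threshold of 0.05 it called 0 of the 14 and 0 of the whole table (0%), with a smallest adjusted p among the 14 of 0.449. Before adjustment, 5 of the 14 had a p under 0.05, 3 higher and 2 lower in KO, beside 9.39% of the table (5.58% higher and 3.81% lower). These 5 belonged to 4 genes: Bmi1, Tnfrsf12a, Il1rn and Hopx. KO and WT arrays overlapped for all 14, where 4.96% of the table did not overlap (2.16% higher and 2.8% lower in KO).

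**Figure D1:**
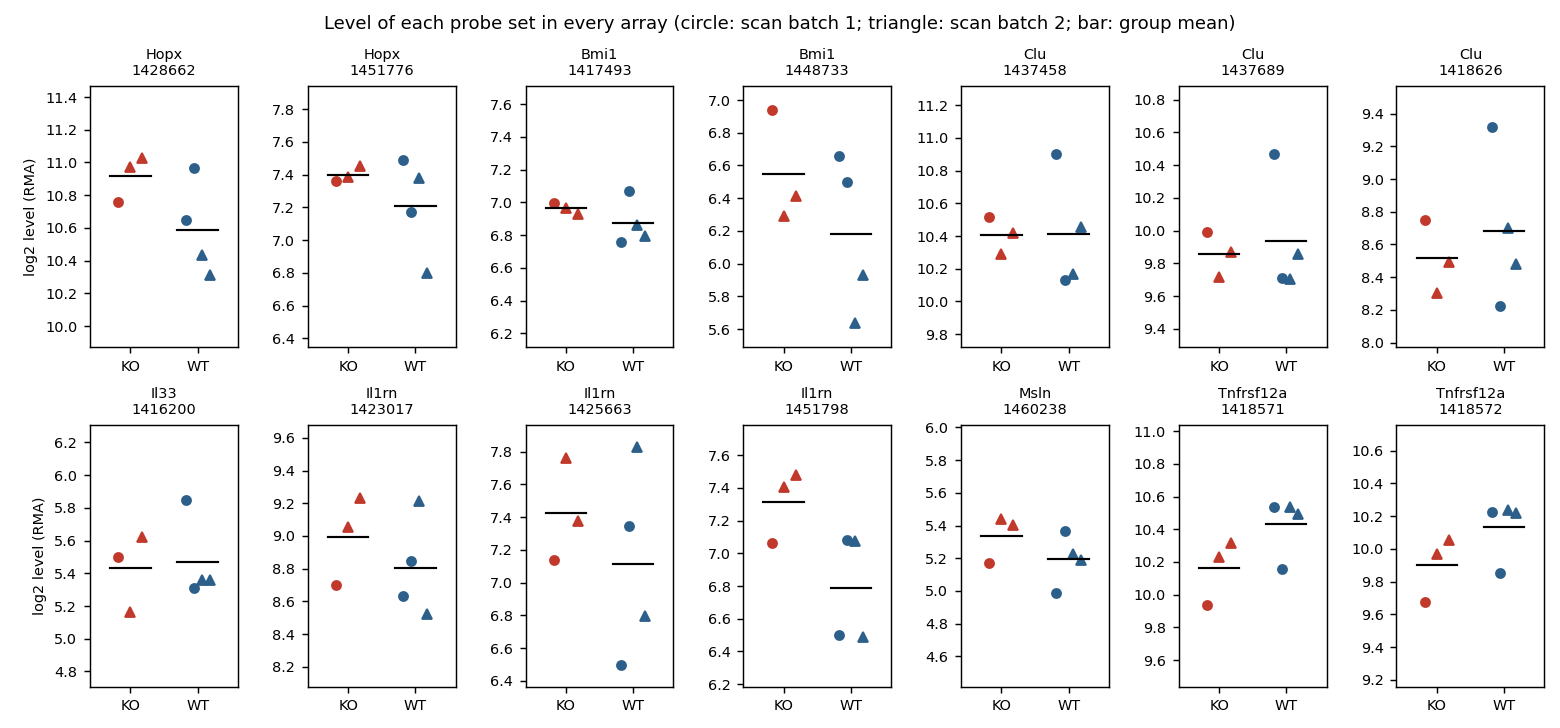
Log2 level of the 14 probe sets in every array, KO left and WT right, with circles for scan batch 1, triangles for scan batch 2 and a bar for the group mean; each panel spans the same number of log2 units. KO and WT points overlap in every panel; for the 2 Tnfrsf12a probe sets WT replicate 2 lies among the KO arrays.

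Bmi1, which with RING1 proteins deposits a repressive histone mark, had the smallest p of the set. On 1448733_PM_at it read 6.94, 6.29 and 6.41 in KO replicates 1 to 3, against 6.66, 6.50, 5.63 and 5.93 in WT replicates 1 to 4. The ranges overlap because both groups read higher in scan batch 1, where KO stood at 6.94 and WT at 6.66 and 6.50, than in scan batch 2, where KO stood at 6.29 and 6.41 and WT at 5.63 and 5.93. Within each batch every KO array was above every WT array. With so few arrays in a batch, groups did not overlap for 60.6% of the table within batch 1 and 50.9% within batch 2. The difference with batch in the fit was 0.49 (SE 0.10, 95% interval 0.25 to 0.72), 1.40-fold, with an unadjusted p of 0.0016 and an adjusted p of 0.449 (limma). Exchanging arrays within scan batch gave a two-sided exact permutation p of 0.0556, the smallest that its 18 arrangements allow, while over all 35 splits it was 0.314. It was 0.36 within batch 1 and 0.57 within batch 2.

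The other Bmi1 probe set, designed from the same transcript record, did not show a difference of that size. 1417493_PM_at read 7.00, 6.97 and 6.93 in KO, against 6.76, 7.07, 6.86 and 6.80 in WT, a difference of 0.10 (SE 0.10, 95% interval -0.12 to 0.33; limma adjusted p = 0.730). WT replicate 2 was the highest array, and the other 3 WT arrays lay below all KO arrays. The 2 probe sets shared the sign of their difference, and over the 7 arrays their levels had a Pearson r of 0.36, given as a description. Neither probe set was called, and the size of the difference depended on which was read.

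Hopx was next among the reserve markers. On 1428662_PM_a_at it read 10.76, 10.97 and 11.03 in KO, against 10.65, 10.96, 10.43 and 10.31 in WT. The KO arrays and WT replicate 2 were the 4 highest. The difference was 0.36 (SE 0.15, 95% interval 0.02 to 0.70), 1.28-fold, with an unadjusted p of 0.0402 and an adjusted p of 0.522 (limma), and a two-sided exact permutation p of 0.114. It was 0.63 within scan batch 2 and -0.049 within scan batch 1. On 1451776_PM_s_at Hopx read 7.36, 7.39 and 7.45 in KO, against 7.49, 7.17, 7.38 and 6.80 in WT, a difference of 0.21 (SE 0.16; limma adjusted p = 0.679), and 0.034 without WT replicate 4, the lowest array.

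A measure of RNA quality went with the grouping that Hopx showed. The Gapdh control probe sets at the 3' end minus those at the 5' end gave a log2 value of -0.154, -0.213 and -0.239 in KO, against -0.131, -0.209, -0.121 and -0.121 in WT, so the KO arrays and WT replicate 2 were the 4 lowest. With that difference as a further covariate, Hopx on 1428662_PM_a_at was at 0.078 and Bmi1 on 1417493_PM_at at 0.024. Bmi1 on 1448733_PM_at was at 0.45 and Tnfrsf12a on 1418571_PM_at at -0.28, close to their values without it, and Il1rn on 1451798_PM_at was at 0.25. The part of RNA quality in these results was not tested further.

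Clu, the marker of revival stem cells, showed no common direction between the genotypes, and its spread lay among the WT arrays. On 1437458_PM_x_at it read 10.51, 10.29 and 10.42 in KO, against 10.90, 10.13, 10.17 and 10.45 in WT. On 1418626_PM_a_at it read 8.75, 8.30 and 8.49 in KO, against 9.32, 8.22, 8.70 and 8.48 in WT. WT replicate 1 was the highest array on all 3 Clu probe sets, and WT replicates 1 and 2 spanned 1.10 log2 units on the last of these. The differences were 0.03 (95% interval -0.37 to 0.42), -0.03 (-0.42 to 0.36) and -0.12 (-0.67 to 0.42), with limma adjusted p between 0.879 and 0.969. All 3 intervals reach to -0.37 or lower and to 0.36 or higher, so the data do not show that Clu was equal in KO and WT.

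**Figure D2:**
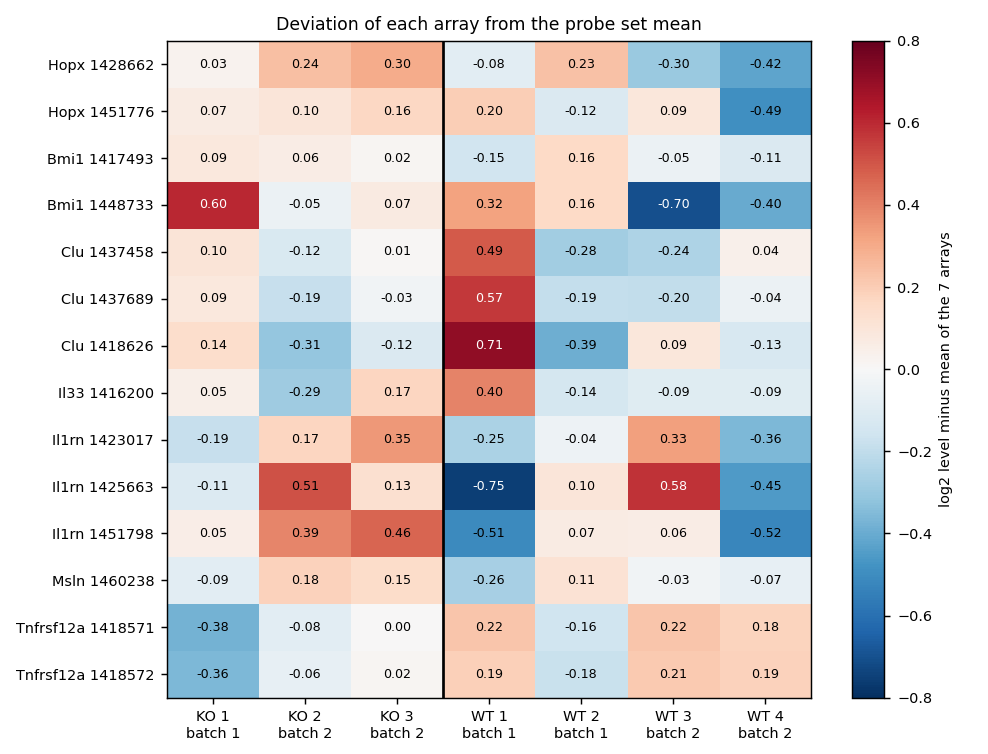
Log2 level of each probe set minus its mean over the 7 arrays, with KO arrays left of the line and WT arrays right of it, and the scan batch under each array. The 3 Clu rows and Il33 are highest in WT replicate 1, at 0.40 to 0.71 above their means, while the Il1rn rows are low there.

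Tnfrsf12a, the receptor for the cytokine TWEAK and a gene of epithelial repair, was the 1 gene of the 7 whose probe sets both pointed to lower levels in KO with an unadjusted p under 0.05. On 1418571_PM_at it read 9.94, 10.23 and 10.32 in KO, against 10.54, 10.16, 10.54 and 10.50 in WT. WT replicate 2 lay among the KO arrays, and the other 3 WT arrays lay above all of them. The difference was -0.31 (SE 0.10, 95% interval -0.54 to -0.08), 1.24-fold lower in KO, with an unadjusted p of 0.0152 and an adjusted p of 0.496 (limma). The two-sided exact permutation p was 0.114, and 0.111 within scan batch. The difference was -0.41 within batch 1 and -0.24 within batch 2.

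The second Tnfrsf12a probe set gave much the same picture but adds little, because both were designed from 1 transcript record and their levels had a Pearson r of 0.996 over the 7 arrays. 1418572_PM_x_at read 9.67, 9.97 and 10.05 in KO, against 10.22, 9.85, 10.24 and 10.22 in WT, a difference of -0.28 (SE 0.10; limma adjusted p = 0.510). WT replicate 2 was the 1 WT array among the KO arrays here too, so leaving it out had to separate the groups. Of the table, 12.9% then did not overlap. The differences were then -0.36 on the first probe set and -0.33 on the second, with adjusted p of 0.209 and 0.218 (limma). Without WT replicate 1 they were -0.23 and -0.21.

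Il1rn encodes the secreted antagonist of the interleukin 1 receptor, and its 3 probe sets all had a higher mean in KO. On 1451798_PM_at it read 7.07, 7.40 and 7.48 in KO, against 6.50, 7.08, 7.07 and 6.49 in WT. KO replicates 2 and 3 were the highest arrays, KO replicate 1 lay level with WT replicates 2 and 3, and WT replicates 1 and 4 were lowest. The difference was 0.50 (SE 0.19, 95% interval 0.07 to 0.94), 1.42-fold, with an unadjusted p of 0.0289 and an adjusted p of 0.511 (limma), and a two-sided exact permutation p of 0.171. Without WT replicate 4 it was 0.32.

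The other Il1rn probe sets overlapped more. 1423017_PM_a_at read 8.70, 9.06 and 9.23 in KO, against 8.63, 8.85, 9.21 and 8.52 in WT, a difference of 0.15 (SE 0.17; limma adjusted p = 0.786). 1425663_PM_at read 7.14, 7.76 and 7.37 in KO, against 6.50, 7.34, 7.83 and 6.80 in WT, a difference of 0.24 (SE 0.28; limma adjusted p = 0.792). Without WT replicate 4 these turned to -0.055 and -0.022. On 1425663_PM_at the highest arrays were WT replicate 3 and KO replicate 2, the same arrays in which the fibroblast marker mean was highest. On 1423017_PM_a_at KO replicate 3 was highest at 9.23, with WT replicate 3 at 9.21. On 1451798_PM_at KO replicate 3 was also highest, at 7.48. The fibroblast marker mean of KO replicate 3 was 5.72. The fibroblast collagen Col3a1 read 5.84, 8.37 and 6.31 in KO, against 5.56, 6.21, 8.26 and 5.48 in WT. The part of stromal RNA in the Il1rn values was not tested.

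Il33, an alarmin of the interleukin 1 family, and Msln, a surface glycoprotein of mesothelium and of fetal-like epithelium, read below the median level of every array. No detection call was used here, so whether either transcript was above background was not tested. Il33 read 5.50, 5.17 and 5.62 in KO, against 5.85, 5.31, 5.36 and 5.36 in WT, with KO arrays on both sides of most WT arrays and a difference of -0.0092 (SE 0.15, 95% interval -0.35 to 0.34; limma adjusted p = 0.988). Msln read 5.17, 5.44 and 5.40 in KO, against 4.99, 5.37, 5.23 and 5.19 in WT, a difference of 0.12 (SE 0.10, 95% interval -0.10 to 0.35; limma adjusted p = 0.685). KO replicates 2 and 3 were highest and KO replicate 1 lay below 3 of the WT arrays. Of 4 mesothelial markers 0 had an unadjusted p under 0.05, beside 9.39% of the table. Over all arrays Upk3b read 7.08 to 7.28, above the median level, and Upk1b 5.01 to 5.24. Lrrn4 read 4.45 to 4.81 and the mesothelial factor Wt1 4.13 to 4.34.

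**Figure D3:**
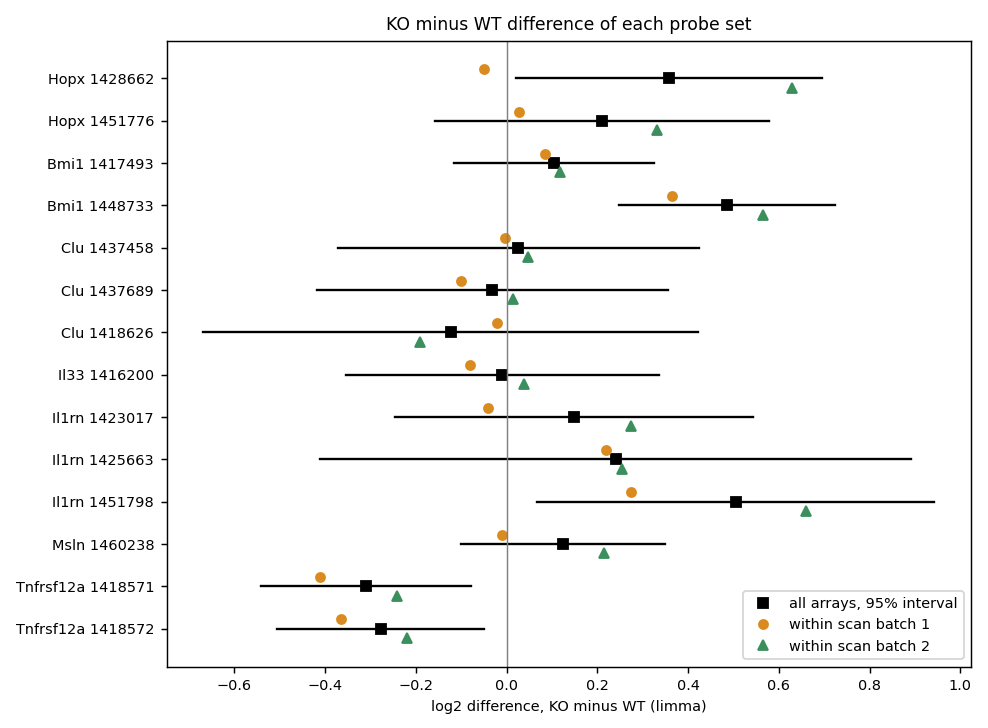
Log2 difference, KO minus WT, of the 14 probe sets, with squares and 95% intervals from the fit over all arrays, circles for the estimate within scan batch 1 and triangles for that within scan batch 2. Both batches lie on the same side of 0 for both Bmi1 and both Tnfrsf12a probe sets. They also do so for Hopx 1451776_PM_s_at, Clu 1418626_PM_a_at, and Il1rn 1425663_PM_at and 1451798_PM_at. The remaining probe sets have them on opposite sides, with the brighter Hopx probe set at -0.049 in batch 1 and 0.63 in batch 2.

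The markers did not move as 1 group across the arrays. Clu and Il33 shared a pattern, with Pearson r of 0.83 to 0.88 between Il33 and the 3 Clu probe sets over the 7 arrays, and both were highest in WT replicate 1. Msln ran against them, at r of -0.75 to -0.89 with Clu and -0.66 with Il33. Bmi1 on 1417493_PM_at and Tnfrsf12a on 1418571_PM_at had an r of -0.85. All of these values come from the same 7 arrays, which share genotype, scan batch and RNA quality, and are given as a description. None of the 7 genes had an SD of 0.5 or more over the arrays on its brightest probe set, the level set for naming further genes of like pattern.

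Genes of the lists of related genes, and the cell type markers, were each read on their brightest probe set only. Shares of the table are over all probe sets. With 1 such probe set per gene and the lowest 25% left out, 11.4% had an unadjusted p under 0.05 and 5.91% did not overlap. Of 26 other genes of the fetal-like and revival programme, 14 had a positive and 12 a negative difference, with a median of 0.0037. At an unadjusted p under 0.05, 1 was higher and 1 lower, beside 9.39% of the table. F3, the tissue factor that starts coagulation, read 6.38, 6.45 and 6.34 in KO, against 6.20, 6.51, 5.78 and 5.51 in WT, a difference of 0.47 (SE 0.16; limma adjusted p = 0.510). It was 0.028 within scan batch 1, 0.757 within scan batch 2 and 0.185 with the Gapdh covariate. The beta-tubulin Tubb6 differed by -0.10 (SE 0.04; limma adjusted p = 0.523).

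All 7 other reserve stem cell genes had a negative difference in the fit with scan batch, where 41.9% of the table was positive. Their differences ran from -0.53 to -0.012, with a median of -0.095. Only Msi1 had an unadjusted p under 0.05, beside 9.39% of the table. Msi1, a neural and intestinal stem cell RNA-binding protein, read 9.35, 9.19 and 9.03 in KO, against 10.15, 9.29, 9.80 and 9.70 in WT, a difference of -0.53 (SE 0.19; limma adjusted p = 0.510). WT replicate 2 again lay by the KO arrays, the grouping that the Gapdh measure also showed, and with that covariate the difference was -0.23. Lrig1, a negative regulator of ErbB receptors, differed by -0.21 (SE 0.17, limma adjusted p = 0.696), and by 0.003 with the Gapdh covariate. The differences of Sox9, Krt19, Dclk1, Krt15 and Tert were smaller than their SE. The group mean of Krt19 was slightly higher in KO, at 11.96 against 11.94 in WT. Bmi1 and Hopx had positive differences on all of their probe sets in the main fit, though Hopx on 1428662_PM_a_at was at -0.049 within scan batch 1. Whether the 7 genes differ in direction from Bmi1 and Hopx was not tested.

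Among 16 genes of Polycomb repressive complex 1 and its target Cdkn2a, 10 had a positive difference (median 0.059). At an unadjusted p under 0.05 there were 2 higher and 0 lower, beside 9.39% of the table (5.58% higher and 3.81% lower). Without overlap there was 1 gene, lower in KO, beside 4.96% of the table. Rnf2, the catalytic partner of Bmi1, read 8.17, 8.03 and 8.06 in KO, against 8.06, 7.92, 7.57 and 7.83 in WT, a difference of 0.28 (SE 0.10; limma adjusted p = 0.510). The subunit Phc3 differed by 0.33 (SE 0.12; limma adjusted p = 0.511), with both WT arrays of scan batch 2 low at 7.20 and 7.32 and all other arrays between 7.75 and 7.85. The Phc3 difference was 0.015 within scan batch 1 and 0.539 within scan batch 2.

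Of 8 genes that act with Tnfrsf12a, 4 had a positive and 4 a negative difference (median 0.027). At an unadjusted p under 0.05, 1 was higher in KO, beside 9.39% of the table. Birc2, an inhibitor of apoptosis that binds the TRAF proteins of this pathway, was the 1 gene of the 8 without overlap, beside 4.96% of the table. It read 6.73, 6.74 and 6.75 in KO, against 6.63, 6.57, 6.22 and 6.20 in WT. Its difference was 0.37 (SE 0.10; limma adjusted p = 0.483), at 0.127 within scan batch 1 and 0.532 within scan batch 2. The related Birc3 differed by 0.14 (SE 0.08; limma adjusted p = 0.617).

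Around Il1rn and Il33, 8 of 15 ligands, receptors and adaptors had a positive difference (median 0.0034). Sigirr, an inhibitory receptor of the family, was the 1 of the 15 with an unadjusted p under 0.05, beside 9.39% of the table. It was lower in KO, with a difference of -0.20 (SE 0.09, limma adjusted p = 0.531). The decoy receptor Il1r2 differed by 0.22 (SE 0.13, limma adjusted p = 0.621). Of 12 receptors and proteases of osteopontin, the product of Spp1, 5 had a positive difference (median -0.0054). The protease Mmp7 read 11.08, 11.15 and 11.25 in KO, against 10.98, 11.02, 11.06 and 10.75 in WT, and differed by 0.21 (SE 0.09; limma adjusted p = 0.531), with 0.074 within scan batch 1 and 0.298 within scan batch 2. The integrin subunit Itgb6 differed by 0.28 (SE 0.12, limma adjusted p = 0.531). Mmp7 and Itgb6 were the 2 of the 12 without overlap, beside 4.96% of the table. Mmp7 was the 1 of the 12 with an unadjusted p under 0.05, beside 9.39% of the table.

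Of 13 other Ly6 family genes 4 had a positive difference (median -0.027) and 0 had an unadjusted p under 0.05, beside 9.39% of the table. Psca had the smallest p, with a difference of 0.13 (SE 0.06; limma adjusted p = 0.531), and the next, Ly6h, was at -0.11 (SE 0.06; limma adjusted p = 0.592). Partners of Hopx, clusterin and mesothelin gave 1 positive and 4 negative differences (median -0.029), with Vldlr at -0.09 (SE 0.13; limma adjusted p = 0.846) and Hdac2 at 0.06 (SE 0.10; limma adjusted p = 0.851). Lgr5-type crypt-base markers, given beside the reserve markers, had 5 of 13 positive differences (median -0.065). Among them Rgmb, a BMP co-receptor, differed by 0.25 (SE 0.09; limma adjusted p = 0.509), with 0.11 within scan batch 1 and 0.351 within scan batch 2, and the water channel Aqp4 by -0.31 (SE 0.14; limma adjusted p = 0.549). Limma called 0 genes of any of these lists at adjusted p under 0.05.

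**Figure D4:**
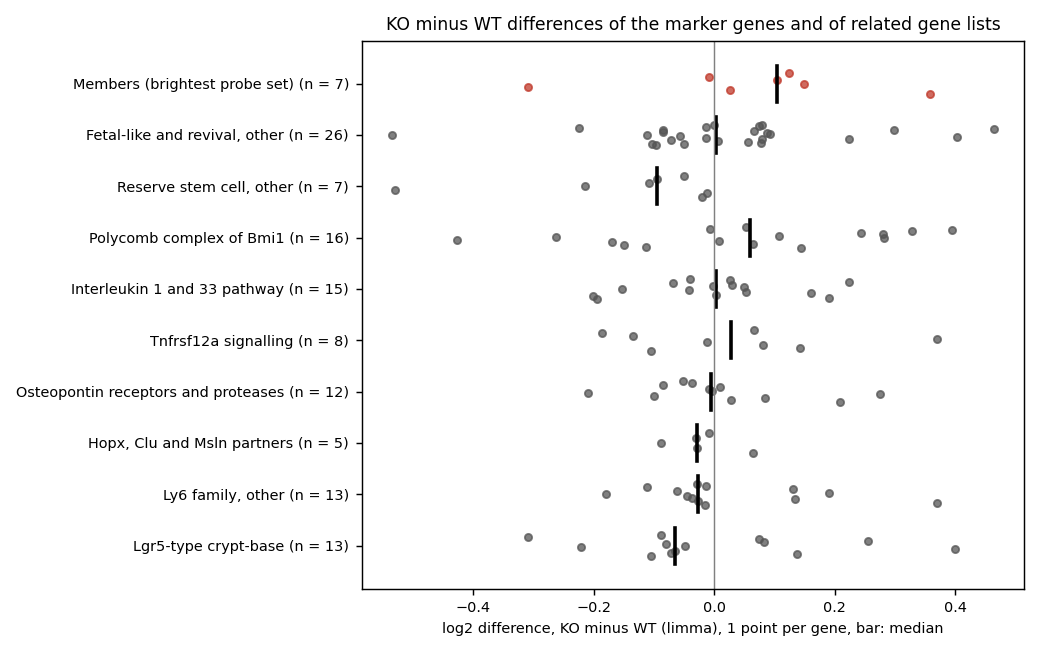
Log2 difference, KO minus WT, of the 7 marker genes (top row) and of 9 lists of related genes. Each gene is 1 point, on its brightest probe set, and a bar marks the median. The bars lie between -0.095 for the other reserve genes and 0.10 for the 7 marker genes, and every row but that of the other reserve genes has points on both sides of 0.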

How the data were processed

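Affymetrix mouse arrays measured 3 KO and 4 WT samples. Per the labels' protocols, RNA from 2000 sorted cells was amplified over 24 cycles, which can add spread between arrays, and 8 µg of cDNA was labelled. The deposited values are log2 levels made by the authors with RMA, per the submitters' processing notes; the sources used here name no filter or batch correction. Of 45141 probe sets, 104 controls were left out of the fit. The annotation gave 1 symbol to 28898 probe sets, several to 551 and none to 15588. By gene number, 28689 matched RefSeq and 0 symbols changed. KO minus WT was fitted with lmFit and trended eBayes of limma 3.58.1 under R 4.3.3. Scan batch was a covariate (4 residual degrees of freedom), no level filter was set, and two-sided p-values were adjusted by Benjamini-Hochberg, with 0.05 as threshold. Differences come from that fit and group means from the values. Single values were also compared by exact permutation over 35 splits, where the smallest p is 0.0286. The fit was tested on simulated data. Named are all probe sets of the listed genes, Mex3a and, in each list of related genes, the 2 of smallest p; cell type markers were fixed as lists, and those named from them were chosen after their values were seen, as was Slc15a2. The genes and lists were chosen with earlier results of these data known. The number of arrays limits the precision. In all, 19 alternatives were run: level filters, 1 probe set per gene, scan batch, normalization, variance model, Gapdh covariate and each array left out.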

Additional observations from a re-analysis of the deposited data

Results flagged for a closer look

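Among the 14 probe sets, the spread of the 4 WT arrays was checked for a single array far from the others, and 3 probe sets showed one. Chance gives this in about 1 of 20 such groups. Tnfrsf12a read 10.16 on 1418571_PM_at and 9.85 on 1418572_PM_x_at in WT replicate 2, below the other WT arrays and among the KO arrays; these probe sets come from 1 transcript record, so they are not separate observations. Il33 on 1416200_PM_at read 5.85 in WT replicate 1, above the other 6 arrays, the array in which Clu was also highest.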

How the results depend on the processing

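No paired analysis was run because the labels tie no KO array to a WT array. The labels also give no replicate numbers. The replicate numbers used here only name the arrays, in the order of deposit within each group. Over 19 alternatives limma called 0 marker probe sets in each. Over the whole table it called 20 probe sets within scan batch 1 and 0 to 1 with 1 array left out (Slc15a2, without WT replicate 4), and 0 otherwise. The median marker difference was -0.015 within scan batch 1 and 0.015 to 0.168 with 1 array left out, lowest without WT replicate 4. Groups did not overlap for 3 marker probe sets within batch 1, 8 within batch 2 and 0 to 4 with 1 array left out, where 60.6% and 50.9% of the table within these batches did not; the highest counts with 1 array left out were 4 without WT replicate 2 (12.9% of the table) and 3 without KO replicate 1 (17.0%). Of 249 alternative marker values 224 kept their sign, among them all of Bmi1 and Tnfrsf12a. Within batch 1 the sign turned for Hopx 1428662_PM_a_at (-0.049), Clu 1437458_PM_x_at (-0.004), Il1rn 1423017_PM_a_at (-0.041), Msln (-0.01), Il1r2 (-0.175) and Hdac2 (-0.201). Within batch 2 it turned for Clu 1437689_PM_x_at (0.014) and Il33 (0.038). With the Gapdh covariate it turned for Clu 1437689_PM_x_at (0.104), Clu 1418626_PM_a_at (0.174), Il33 (0.049), Il1rn 1423017_PM_a_at (-0.009), Msln (-0.029), Lrig1 (0.003) and Hdac2 (-0.097). Clu 1437458_PM_x_at was at -0.006 without the scan batch term, and Il33 at 0.016 after quantile normalization and 0.003 after median centring. With 1 array left out the ranges were -0.099 to 0.157, -0.151 to 0.103 and -0.318 to 0.048 for Clu, -0.136 to 0.094 for Il33, -0.055 to 0.289 and -0.022 to 0.495 for Il1rn on 1423017_PM_a_at and 1425663_PM_at, and -0.015 to 0.242 for Hdac2. The Hopx difference on 1428662_PM_a_at had an adjusted p of 0.0528 with array weights, and that of Bmi1 on 1448733_PM_at 0.0521, values that Mex3a, F3, Birc2 and Phc3 shared; 24.1% of the table then had an unadjusted p under 0.05, against 9.39%. The cause was not tested. Lone arrays are assumed to vary like the others. Without detection calls, signal over background was not tested.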
